A study of Mus musculus with 6 samples.

Results

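Culture activation of mouse hepatic stellate cells was followed here gene by gene, as the signal of cells grown on plastic with vehicle minus the signal of quiescent cells of the same age. The comparison used 4 of the 6 arrays of the series, 2 titled as culture-activated with vehicle and 2 titled as quiescent, and it covered 15526 of 22180 genes. Members were all genes with a probe set that names a single symbol, each taken at its brightest probe set, and genes with low signal were left out. The young quiescent and young vehicle samples came from mice of 8 to 11 weeks and the old quiescent and old vehicle samples from mice of 6 to 9 months, each sample being a pool of cells from 5 mice. Quiescent cells came from normal liver, were left on the dish for 12 h and had no treatment. Vehicle cells had been cultured on uncoated plastic for more than 20 days, in high glucose medium with fetal bovine serum that was renewed every 5 days, and were not given C-82. The remaining 2 arrays held activated cells of each age given C-82 at 10 µM, the active form of the CBP/beta-catenin inhibitor PRI-724. They served for the estimate of the spread and entered the mean signal by which probe sets and genes were chosen. Strain, sex, the solvent given to the vehicle cells and any sharing of a cell pool between the quiescent and vehicle samples of an age are not stated in the sources at hand. Even the quiescent cells had been on a dish for some hours, so the comparison is between early and late culture and not with cells taken straight from the liver.

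Stellate cells are the pericytes of the liver sinusoid, which in the healthy organ store vitamin A as retinyl esters in lipid droplets. On plastic or in injured liver they lose this store, spread, take up actin stress fibres and lay down collagen, a change called activation that underlies liver fibrosis. Isolation and plating also set off a short-lived inflammatory and stress response in most primary cells, driven by NF-kB, AP-1 and the heat shock factor. The quiescent arrays of this comparison were made in the first hours after plating and the vehicle arrays weeks later.

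All 4 arrays carried stellate cell transcripts together with those of other liver cells. None of the 12 stellate and mesenchymal markers was under the signal floor (a log2 signal of 4.70, the level below which genes were not tested) on any of these arrays, and their mean log2 signal was 7.81 and 7.80 on the quiescent and 8.99 and 9.08 on the vehicle arrays. Here and below, a pair of values is that of the young and then of the old array. Markers of Kupffer cells, the resident macrophages of the liver, had means of 7.92 and 8.48 on the quiescent and 8.29 and 8.10 on the vehicle arrays. Those of sinusoidal endothelium, which lines the liver capillaries, had means of 9.29 and 7.93 and then of 9.24 and 8.89. Lrat, the enzyme that makes retinyl esters and a defining stellate gene, stood at 6.32 and 6.87 and then at 7.71 and 8.15, Adgre1, which encodes the macrophage antigen F4/80, at 7.67 and 8.02 and then at 8.10 and 7.47, and Stab2, an endothelial scavenger receptor, at 8.75 and 6.86 and then at 9.41 and 8.99. In such bulk samples fewer cells of a type and less RNA per cell cannot be told apart.

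By limma at an adjusted p of 0.05, 911 of the 15526 genes differed between vehicle and quiescent cells. In vehicle cells 716 were higher (4.61%) and 195 lower (1.26%). Activation, time in culture and the mix of cells cannot be told apart in this comparison. All 716 and all 195 had the same sign in both pairs. The test requires this of a called gene, because a disagreement between the ages enters its spread. The median rise was 2.85-fold and the median fall 2.81-fold, 139 genes rose and 50 fell at least 4-fold, and 29 rose and 11 fell at least 8-fold. Without a test, 630 genes (4.06%) were at least 2-fold higher in both pairs and 179 (1.15%) at least 2-fold lower in both, and after cyclic loess these counts were 438 and 257, after quantile normalization 422 and 237. Another 17 genes (0.109%) differed at least 2-fold in opposite directions. The median over all genes was 0.04 log2 units.

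With a single array per group, the spread within a group cannot be measured. The standard error (SE) comes from limma's moderated fit of state and age over the 6 arrays and measures how far the ages disagree over the 3 states. The interquartile range of the tested genes was 2.11 to 2.43 log2 units on the 4 arrays compared, 2.32 on the old PRI-724 array and 1.71 on the young PRI-724 array. Without the young vehicle array 193 genes rose and 125 fell, 365 and 119 when the young PRI-724 array was left out, and 374 and 115 when the old PRI-724 array was left out. The fits that left out 1 array in turn all called 136 of the 716 higher and 35 of the 195 lower genes. Where a named gene lost its call in such a fit, the array is given. When 1 PRI-724 array is left out, the other is fitted by its own term and adds nothing to the spread. Both such fits and that of the 4 arrays alone are therefore nearly the same fit. A call lost without the young and without the old PRI-724 array is a single loss, and the alternative settings are not separate checks. Under all 15 alternative settings 68 higher and 7 lower genes kept their call. Among the former are Edn1, Angptl4, Gucy1a1, Bmp4, Tuba1a, S100a6, Mmp10, Vgll3 and Aldh1a1, and the latter are Hspa1b, Serpina3n, S1pr3, Sipa1l3, Tnfaip3, Sparcl1 and Tmem108.

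**Figure D1:**
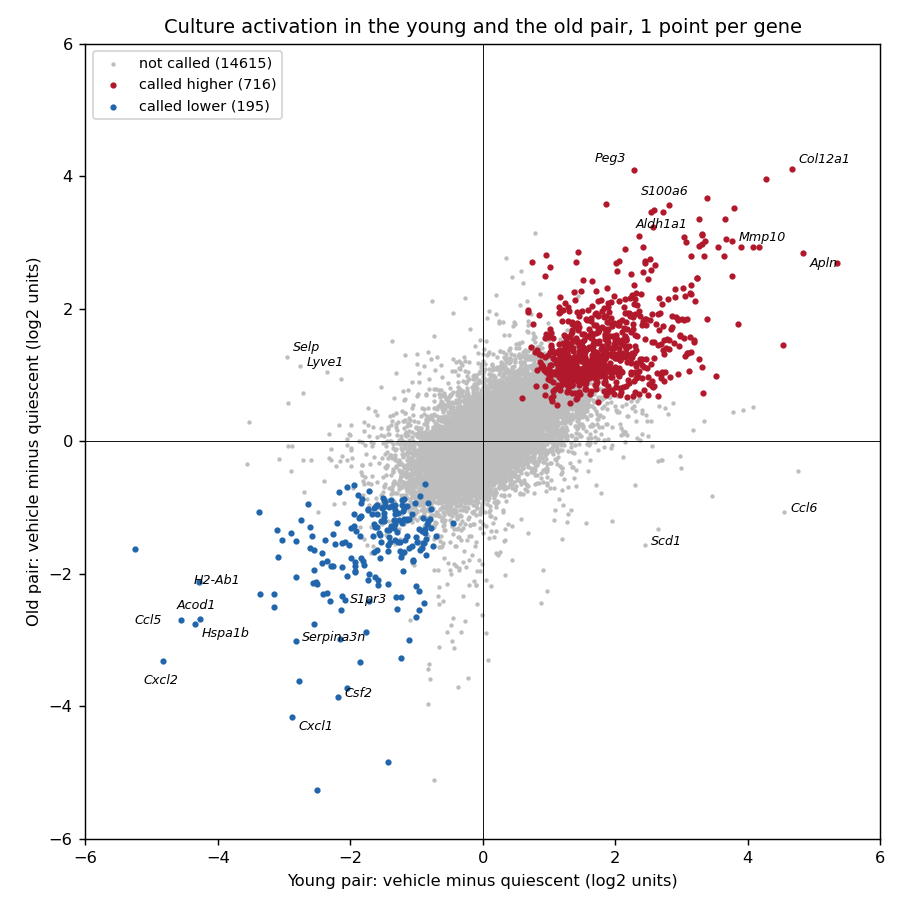
Vehicle minus quiescent in the young pair (x axis) and in the old pair (y axis), in log2 units, with 1 point for each of the 15526 tested genes; red points are the 716 genes called higher, blue points the 195 called lower and grey points the rest. The red and blue points lie at the upper right and the lower left, since the test requires a called gene to have the same sign in both pairs. Ccl6, Scd1, Selp and Lyve1, which were not called, lie away from this diagonal.

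Most of the best-known fibrosis genes rose. Of 25 genes of that list 17 rose and 0 fell (10 without the young vehicle and 11 without either PRI-724 array), with a median of 1.72 log2 units against 0.04 over all genes. Acta2, smooth muscle actin, went from 5.94 and 6.97 on the quiescent to 9.73 and 10.49 on the vehicle arrays, and Col1a1, the main chain of type I collagen, from 6.28 and 6.92 to 8.85 and 10.16. The text below turns to the other genes. Counts of called genes in its lists stand beside 4.61% of all genes called higher and 1.26% called lower.

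Secreted signals were among the largest rises. Apln, which encodes the apelin peptide, stood at 4.82 and 7.51 on the quiescent and at 9.66 and 10.35 on the vehicle arrays. Both vehicle arrays were above both quiescent arrays, and the young quiescent array was far below the old one. Apln rose by 3.84 ± 0.60 log2 units (SE, n = 2 pairs), or 14.3-fold (limma, adjusted p = 0.00903). Edn1, the precursor of the vasoconstrictor endothelin-1, went from 6.11 and 6.86 to 9.46 and 9.89, a rise of 3.19 ± 0.35 (adjusted p = 0.00408) that was nearly equal in the 2 ages. Angptl4, a secreted inhibitor of lipoprotein lipase, went from 6.73 and 6.73 to 9.79 and 9.75 and rose by 3.04 ± 0.32 (adjusted p = 0.00403). Aplnr, the receptor of apelin, stood at 5.06 and 5.36 and then at 4.84 and 4.90, a difference of -0.34 ± 0.28 that was not called (adjusted p = 0.516). The endothelin receptor gene Ednrb stood at 12.13 and 11.83 and then at 11.88 and 9.94, so that only the old vehicle array was clearly lower, and it was not called (adjusted p = 0.0828).

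Of 31 tested growth factor and receptor genes of the fibroblast, epidermal, vascular and hepatocyte families, 5 rose and 1 fell, with a list median of 0.17, and 2 rose without the old quiescent, the young vehicle or either PRI-724 array. Besides Angptl4, these were Vegfd, a lymphatic vessel growth factor, at 2.04 ± 0.37, the fibroblast growth factor receptor Fgfr2 at 1.37 ± 0.33, hepatocyte growth factor, Hgf, at 1.33 ± 0.32, and Fgf2, a fibroblast mitogen, at 1.16 ± 0.28. None of these 4 calls was kept in every fit that left out 1 array. Vegfd lost it without the young vehicle, the young PRI-724 or the old PRI-724 array (adjusted p = 0.0513 to 0.084), Fgfr2 without the old quiescent or the young vehicle array (adjusted p = 0.312 and 0.355), Hgf without the old quiescent, the old vehicle, the young PRI-724 or the old PRI-724 array (adjusted p = 0.0982 to 0.354), and Fgf2 without any 1 of the 6 arrays (adjusted p = 0.054 to 0.371). The gene that fell was Csf2, described below. Vegfa stood at 0.17 ± 0.36 and Egfr at -0.11 ± 0.25, and neither was called.

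Ligands of other families, named after their values were seen, rose in every fit that left out 1 array. Bmp5 and Bmp4, ligands of the bone morphogenetic protein family, rose by 2.52 ± 0.38 and 2.16 ± 0.30, and Bmper, a secreted protein that binds these ligands, by 2.39 ± 0.30. Bmp5 went from 7.69 and 7.14 to 9.84 and 10.05 and Bmp4 from 5.70 and 5.83 to 8.16 and 7.68, with no overlap of the groups. Bmp2 and Bmp6 of the same family stood at -0.23 ± 0.32 and -0.97 ± 0.36 (adjusted p = 0.725 and 0.148) and were not called. Pdgfd, a platelet-derived growth factor, was close to the signal floor on the quiescent arrays at 4.74 and 4.84 and reached 7.27 and 7.43 on the vehicle arrays, a rise of 2.56 ± 0.36. Wls, the carrier that brings Wnt proteins to the cell surface, rose by 1.72 ± 0.28 in a narrow band, from 7.53 and 7.47 to 9.21 and 9.23.

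**Figure D2:**
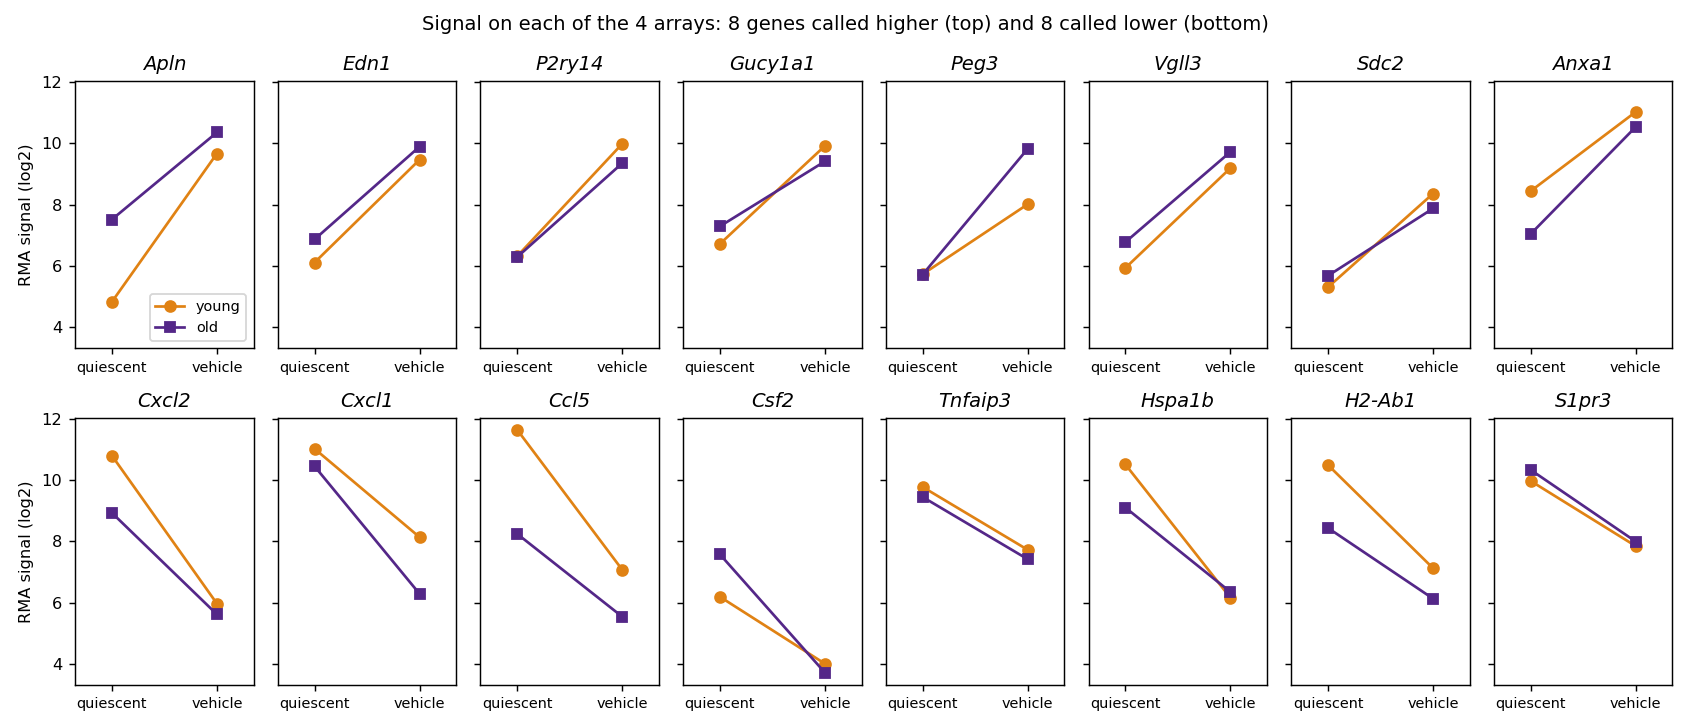
RMA signal (log2, y axis) of 16 genes on the quiescent and vehicle arrays (x axis), with orange circles for young and purple squares for old cells; the upper row shows 8 genes called higher and the lower row 8 genes called lower. Every line of the upper row climbs and every line of the lower row drops, and Apln, Ccl5 and H2-Ab1 are examples with a wide gap between the ages on the quiescent arrays.

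Among surface receptors the largest rise was in P2ry14, which encodes the receptor for UDP-glucose. It stood at 6.32 and 6.29 on the quiescent and at 9.98 and 9.35 on the vehicle arrays, and the 2 quiescent arrays were nearly the same. The rise was 3.36 ± 0.69 (adjusted p = 0.0225). In the opposite direction S1pr3, a receptor for sphingosine 1-phosphate, went from 9.97 and 10.33 to 7.84 and 7.99, and it fell by 2.23 ± 0.28 log2 units (adjusted p = 0.00453), with nearly the same fall in each age. Its relatives S1pr1 and S1pr2 were not called, at -0.35 ± 0.58 and 0.86 ± 0.29. Of 20 tested vasoactive and lipid G protein-coupled receptors 3 rose and 1 fell, and the median was 0.26. Without the old quiescent or the young vehicle array 1 rose. Agtr1a, the angiotensin II receptor, rose by 1.82 ± 0.36, a call lost without the old quiescent or the young vehicle array (adjusted p = 0.0973 and 0.102), and Pth1r, the parathyroid hormone receptor, by 1.22 ± 0.27, a call lost without any 1 of the 6 arrays (adjusted p = 0.0518 to 0.391). Spns2, the exporter of sphingosine 1-phosphate, chosen after its values were seen, went from 6.54 and 6.68 to 8.38 and 8.70 and rose by 1.93 ± 0.31, while S1pr3 fell.

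Some genes of the nitric oxide and cyclic GMP pathway rose, and they were picked out after their values were seen, so no count over the pathway is given. Nitric oxide activates a soluble guanylate cyclase made of an alpha and a beta subunit, and the cyclic GMP it forms activates a protein kinase that relaxes smooth muscle. Gucy1a1 went from 6.72 and 7.29 to 9.91 and 9.41 and Gucy1a2, the alternative alpha subunit, from 5.20 and 5.08 to 6.84 and 7.50, with vehicle above quiescent at each age. They rose by 2.66 ± 0.38 and 2.03 ± 0.29 (adjusted p = 0.0072 for both), and the beta subunit Gucy1b1 by 1.81 ± 0.39 (adjusted p = 0.027). Prkg1, the kinase, rose by 1.96 ± 0.31, from 6.22 and 5.93 to 8.12 and 7.96. Ddah1, which breaks down an inhibitor of nitric oxide synthesis, rose by 1.94 ± 0.27, and Npr3, the clearance receptor of natriuretic peptides, by 2.68 ± 0.29, from 7.21 and 8.48 to 10.33 and 10.72. Npr2, a receptor that makes cyclic GMP itself, rose by 1.25 ± 0.27 (adjusted p = 0.0272). In contrast Npr1, Ddah2, Nos3, the endothelial nitric oxide synthase, and Pde5a, which degrades cyclic GMP, were not called, at 0.29 ± 0.29, 0.33 ± 0.32, 0.50 ± 0.29 and 0.68 ± 0.29. Gucy1b1 lost its call without the old quiescent or the young vehicle array (adjusted p = 0.113 and 0.113) and Npr2 without the young quiescent, the old quiescent, the young vehicle or the old vehicle array (adjusted p = 0.0588 to 0.31).

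Some cytoskeletal genes beyond the smooth muscle set rose. Of 31 tested genes of actin crosslinking and focal adhesion 10 rose and 0 fell, with a median of 0.85 and 26 above 0 in both pairs. The count was 5 without the young vehicle array or either PRI-724 array. Anln, the scaffold anillin that binds actin and myosin, went from 4.67 and 4.66, under the floor, to 7.08 and 7.58, a rise of 2.67 ± 0.45 (adjusted p = 0.0115). Parva, which links integrins to actin, rose by 1.70 ± 0.25, from 8.20 and 8.34 to 10.04 and 9.89. Fhl1, a LIM domain protein of muscle, rose by 2.62 ± 0.42, and Fscn1, the actin bundler fascin, by 1.96 ± 0.40. Crip2 rose by 1.81 ± 0.28 and Actn1, alpha-actinin 1, by 1.54 ± 0.24. Calls were lost for Fhl1 without the young PRI-724 or the old PRI-724 array (adjusted p = 0.0525 and 0.0525), for Fscn1 without the young vehicle array (adjusted p = 0.193), for Crip2 without the young PRI-724 or the old PRI-724 array (adjusted p = 0.0528 and 0.0527) and for Actn1 without the young PRI-724 or the old PRI-724 array (adjusted p = 0.062 and 0.0618). Pxn, paxillin, and Vasp, both of focal adhesions, stood at -0.12 ± 0.28 and 0.18 ± 0.31 and were not called.

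Microtubule genes moved unevenly, with 3 of 19 higher and 1 lower. Tuba1a, an alpha-tubulin, went from 4.47 and 5.13 to 8.37 and 8.06, a rise of 3.42 ± 0.38 or 10.7-fold (adjusted p = 0.00408). Its near-identical relatives Tuba1b and Tuba1c stood at 0.94 ± 0.26 and 0.16 ± 0.28, and probes of such paralogs can pick up each other's transcripts. Dpysl2, a microtubule-binding protein of growing axons, rose by 2.60 ± 0.39, from 7.14 and 7.54 to 10.04 and 9.83. Map1b, a microtubule-associated protein, fell by 1.46 ± 0.37, a call lost without the young quiescent, the young vehicle, the young PRI-724 or the old PRI-724 array (adjusted p = 0.094 to 0.543).

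Several contractile and cytoskeletal genes that rose hold a CArG box, the site of serum response factor, in the 250 bases before their RefSeq start. The stretches of Myl9, a myosin light chain, Cnn2, a calponin, and Fhl1 are printed to show it, 5′ to 3′ on the gene's strand with the box in capitals, from RefSeq in the build GRCm38.p6.
Myl9 (chr2:156775278-156775337, plus strand): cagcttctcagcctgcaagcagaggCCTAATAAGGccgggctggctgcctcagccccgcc
Cnn2 (chr10:79988519-79988578, plus strand): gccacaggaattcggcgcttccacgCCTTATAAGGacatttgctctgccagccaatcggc
Fhl1 (chrX:56779556-56779615, plus strand): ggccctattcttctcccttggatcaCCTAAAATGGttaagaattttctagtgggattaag
Myl9 went from 6.37 and 6.86 to 9.71 and 9.65 and Cnn2 from 8.49 and 8.90 to 10.44 and 10.68, with vehicle far above quiescent in both ages. A CArG box was found in 2.12% of the 566 higher genes with a promoter in the table (12 genes), in 2.80% of the 143 lower genes (4 genes) and in 1.57% of the 12055 tested genes. TEAD motifs, GGAATG on either strand and so present in many promoters, stood at 18.9% of the higher and 14.8% of the tested genes. A match is a description of these letters and not a site of binding.

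Some genes of membrane proteins that shape or repair the cell surface rose. Caveolae are flask-shaped pits of the plasma membrane that flatten under stretch. Of 9 caveolar genes 3 rose, with a median of 0.77. Ehd2, the ATPase at the neck of the pit, went from 6.95 and 7.75 to 9.75 and 9.89, a rise of 2.47 ± 0.29 (adjusted p = 0.00408), and Cavin2, a coat protein, from 5.21 and 5.22 to 7.23 and 7.80, a rise of 2.30 ± 0.34 (adjusted p = 0.00796). Cavin1 rose by 1.72 ± 0.33, a call lost without the old quiescent or the young vehicle array (adjusted p = 0.0536 and 0.17). The caveolin Cav1 itself stood at 0.69 ± 0.28 and was not called (adjusted p = 0.18).

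Annexins, which bind membranes when calcium rises, were called in part. Of 8 tested genes 3 rose, and the median was 0.97. Anxa1, also a mediator that limits inflammation, went from 8.44 and 7.04 to 11.02 and 10.53 and rose by 3.04 ± 0.49 (adjusted p = 0.00985). Anxa2 rose by 2.14 ± 0.25, from 7.74 and 8.20 to 10.12 and 10.09, and Anxa3 by 2.35 ± 0.34, a call lost without the young PRI-724 or the old PRI-724 array (adjusted p = 0.0582 and 0.058). Anxa4, Anxa5 and Anxa7 stood at 0.16 ± 0.32, 0.58 ± 0.20 and 0.18 ± 0.28 and were not called. S100a6 and S100a11, calcium-binding partners of annexins, rose as well, and no count over their family is given. S100a6, picked among the largest rises, went from 5.62 and 5.72 to 9.01 and 9.39, a rise of 3.52 ± 0.39. S100a11, named after its values were seen, went from 9.65 and 10.19 to 11.76 and 11.72, a rise of 1.82 ± 0.21. Lgals1, the sugar-binding protein galectin-1, was bright on all arrays, at 7.81 and 9.19 and then 11.45 and 11.99, and rose by 3.22 ± 0.25 (adjusted p = 0.00264).

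Single secreted and surface proteins rose as well. Mmp10, the protease stromelysin-2, went from 7.10 and 7.71 to 10.86 and 10.73, a rise of 3.39 ± 0.31 or 10.5-fold (adjusted p = 0.00264). Spon2, a secreted matrix protein, went from 5.38 and 6.28 to 8.10 and 9.75 and rose by 3.10 ± 0.31. Nt5e, the ectoenzyme CD73 that turns AMP into adenosine, went from 5.63 and 6.25 to 9.72 and 9.19 and rose by 3.51 ± 0.51 (adjusted p = 0.00757). Adamts5, an aggrecanase that was named after its values were seen, went from 5.15 and 4.55 to 7.60 and 7.24 and rose by 2.57 ± 0.38. In each of these 4 genes both vehicle arrays were above both quiescent arrays. The genes were picked as rises, and the share of all genes with such a separation was not counted.

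Of 24 genes of collagen folding and secretion 5 rose and 0 fell, with a median of 0.89 and 21 above 0 in both pairs. The count was 1 without the young vehicle array and 10 without the old vehicle array. Pcolce, which speeds the trimming of procollagen, rose by 2.07 ± 0.29, from 6.08 and 6.62 to 8.29 and 8.56. Kdelr3, a retrieval receptor of the secretory pathway, rose by 1.92 ± 0.33 and Bmp1, a procollagen proteinase, by 1.85 ± 0.33. The call of Kdelr3 was lost without the young vehicle array (adjusted p = 0.0866) and that of Bmp1 without the young vehicle array (adjusted p = 0.155). Serpinh1, the collagen chaperone HSP47, stood at 0.84 ± 0.29 and was not called (adjusted p = 0.123).

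Heparan sulfate genes supplied most calls of the glycosaminoglycan list, in which 5 of 26 rose and 0 fell (3 without the old quiescent or the young vehicle array) and the median was 0.46. Sdc2, a heparan sulfate proteoglycan of mesenchymal cells, went from 5.31 and 5.68 to 8.36 and 7.87, a rise of 2.62 ± 0.38 (adjusted p = 0.00755). Sulf2, which removes sulfate groups from heparan sulfate, went from 5.72 and 6.91 to 7.78 and 9.04 and rose by 2.09 ± 0.27, and its relative Sulf1 rose by 1.72 ± 0.35, a call lost without the old quiescent, the old vehicle, the young PRI-724 or the old PRI-724 array (adjusted p = 0.0865 to 0.194). Ext2, a subunit of the heparan sulfate polymerase, rose by 1.63 ± 0.29, a call lost without the young vehicle array (adjusted p = 0.185). The other syndecans Sdc1, Sdc3 and Sdc4 stood at 0.06 ± 0.24, 0.34 ± 0.20 and 0.04 ± 0.29, and the hyaluronan synthases Has1, Has2 and Has3 at -0.36 ± 0.24, -0.42 ± 0.27 and -0.03 ± 0.25, and none of these 6 was called.

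Adhesion and guidance molecules changed in few members, beside 4.61% of all genes called higher. Of 25 cadherins, immunoglobulin adhesion molecules and connexins 3 rose, with a median of 0.32. Without the old quiescent array 1 rose and 3 fell, 1 rose without the young vehicle array, and 6 rose without the young quiescent array. Cdh2, the N-cadherin of mesenchymal cells, went from 9.51 and 9.79 to 11.21 and 11.14 and rose by 1.52 ± 0.20 (adjusted p = 0.0055), while Cdh11 stood at 0.72 ± 0.34. Of 24 ephrins, Eph receptors, Slits, Robos and netrins 3 rose, with a median of 0.30, and without the old quiescent array 0 did. Efna5 rose by 1.85 ± 0.31, from 6.01 and 5.70 to 7.66 and 7.74, a call lost without the old quiescent array (adjusted p = 0.0669). Pcdh7, a protocadherin, went from 6.33 and 6.97 to 9.47 and 9.33 and rose by 2.75 ± 0.34 (adjusted p = 0.00461).

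Regulators of transcription outside the usual fibrosis genes were also among the rises. Vgll3, a cofactor of the TEAD factors, went from 5.93 and 6.77 to 9.19 and 9.72, a rise of 3.10 ± 0.27 or 8.57-fold (adjusted p = 0.00264). Lbh, a small regulator found in limb bud and heart, went from 7.12 and 7.29 to 10.44 and 10.28 and rose by 3.15 ± 0.47. Peg3, an imprinted zinc finger gene expressed from the paternal copy, stood at 5.73 and 5.72 on the quiescent arrays and at 8.01 and 9.82 on the vehicle arrays. Its quiescent values were almost equal and its vehicle values were far apart, with the old array higher. It rose by 3.19 ± 0.40 (adjusted p = 0.00469). Of 37 mesenchymal and stellate transcription factors 6 rose and 0 fell, with a median of 0.23, and 2 did without the young vehicle array, 3 without the old quiescent or either PRI-724 array. Hand2, a basic helix-loop-helix factor of stellate cells, went from 5.89 and 5.87 to 8.22 and 7.93 and rose by 2.19 ± 0.31 in all 6 fits that left out 1 array. Tcf21, Tbx20, Snai2, Nr2f2 and Gata6 rose by 1.66, 1.56, 1.55, 1.41 and 1.16. Their calls were lost for Tcf21 without the old quiescent, the young PRI-724 or the old PRI-724 array (adjusted p = 0.0511 to 0.2), for Tbx20 without the young quiescent, the young vehicle, the young PRI-724 or the old PRI-724 array (adjusted p = 0.0579 to 0.173), for Snai2 without the old quiescent or the young vehicle array (adjusted p = 0.215 and 0.0699), for Nr2f2 without the young quiescent, the old quiescent or the young vehicle array (adjusted p = 0.0846 to 0.168) and for Gata6 without any 1 of the 6 arrays (adjusted p = 0.0525 to 0.564). Srf, the serum response factor, and its coactivators Mrtfa and Mrtfb stood at -0.16 ± 0.27, 0.68 ± 0.28 and 0.55 ± 0.27 and were not called.

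Of the Notch, Hedgehog and nuclear receptor genes 1 each was called, a share near the 4.61% of all genes called higher. Nrarp, a feedback inhibitor of Notch, rose by 1.70 ± 0.26, from 4.60 and 5.02 to 6.59 and 6.44, and was the 1 gene called of 16 Notch genes, whose median was 0.00. Boc, a Hedgehog coreceptor, rose by 1.47 ± 0.25, from 5.15 and 5.59 to 6.57 and 7.11, and was the 1 gene called of 12 Hedgehog genes, whose median was 0.41. Gli1, the usual readout of Hedgehog signalling, stood at -0.29 ± 0.32. Of 22 nuclear receptors the only call was Rarb, a retinoic acid receptor that retinoic acid itself induces, at 2.21 ± 0.40, a call lost without the young vehicle, the young PRI-724 or the old PRI-724 array (adjusted p = 0.0695 to 0.102). Pparg, linked to the quiescent state, stood at 0.81 ± 0.29 and Vdr, the vitamin D receptor, at 0.24 ± 0.25.

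Genes of the vitamin A programme went in both directions. Of 22 genes of retinoid storage and of quiescent stellate cells 5 rose and 2 fell, with a median of 0.21, while without the old quiescent array 2 rose and 4 fell. Aldh1a1, which oxidises retinaldehyde to retinoic acid, had the largest rise of the list: it went from 7.71 and 7.86 to 11.02 and 10.97, nearly alike in both ages, and rose by 3.21 ± 0.45 or 9.28-fold (adjusted p = 0.00643). Cygb, a globin of stellate cells, rose by 1.77 ± 0.28, a call lost without the young vehicle array (adjusted p = 0.0777), and Lrat by 1.34 ± 0.31, a call lost without the old quiescent or the young vehicle array (adjusted p = 0.2 and 0.389). Rgs5, a pericyte regulator of G proteins, fell by 1.66 ± 0.29, from 10.26 and 10.47 to 8.62 and 8.80, a call lost without the young quiescent array (adjusted p = 0.0518). Colec11, a collectin of stellate cells, fell by 1.29 ± 0.26, a call lost without the young quiescent, the young vehicle or the old vehicle array (adjusted p = 0.078 to 0.103). Rbp4, the retinol carrier of plasma and a hepatocyte product too, stood at -1.14 ± 0.35 and was not called.

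Some genes that burn fatty acids rose. Of 18 tested genes of fatty acid oxidation 4 rose and 0 fell, 16 were above 0 in both pairs, and the median was 0.92, 1.21 for young and 0.70 for old cells. Hadh, Acaa2 and Etfb, which act in the mitochondrial spiral, and Cpt1a, which controls entry into the mitochondrion, rose by 2.08, 1.70, 1.52 and 1.52. The calls were lost for Hadh without the young vehicle, the young PRI-724 or the old PRI-724 array (adjusted p = 0.054 to 0.155), for Acaa2 without the young quiescent, the young vehicle, the young PRI-724 or the old PRI-724 array (adjusted p = 0.0975 to 0.511), for Etfb without the young quiescent, the young vehicle, the young PRI-724 or the old PRI-724 array (adjusted p = 0.0584 to 0.257) and for Cpt1a without the old quiescent or the young vehicle array (adjusted p = 0.0781 and 0.284), and without the young vehicle array none of the list was called, while 7 were without the old vehicle array. Of 24 genes of lipogenesis and lipid droplets 0 were called, with a median of 0.14, but 3 rose without the old quiescent and 5 without the old vehicle array. Fasn, fatty acid synthase, stood at -0.01 ± 0.27, and Plin2, the lipid droplet coat protein, at 0.11 ± 0.22.

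Some genes of detoxifying enzymes rose. Of 25 genes of glutathione, antioxidant and xenobiotic metabolism 4 rose and 1 fell, with a median of 0.80 for young and -0.18 for old cells. Without the old quiescent or the old vehicle array 7 rose, and without either PRI-724 array 2. Gstm2, a glutathione transferase, went from 7.24 and 6.93 to 9.46 and 8.86 and rose by 2.08 ± 0.32 (adjusted p = 0.00899), although other Mu class transferases are near-identical to it. Gpx8, a peroxidase of the endoplasmic reticulum, rose by 2.30 ± 0.34, a call lost without the young PRI-724 or the old PRI-724 array (adjusted p = 0.0567 and 0.0571), and Cyp1b1, a cytochrome of mesenchymal cells, by 2.17 ± 0.39, a call lost without the young quiescent, the young PRI-724 or the old PRI-724 array (adjusted p = 0.054 to 0.0604). Nqo2, a quinone reductase outside the list, went from 4.62 and 5.52 to 7.85 and 7.98 and rose by 2.85 ± 0.34, while its relative Nqo1, a target of the factor NRF2, stood at 0.02 ± 0.28. Srxn1, another NRF2 target, fell by 1.07 ± 0.27, a call lost without the young quiescent, the old quiescent, the old vehicle, the young PRI-724 or the old PRI-724 array (adjusted p = 0.0701 to 0.318).

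**Figure D3:**
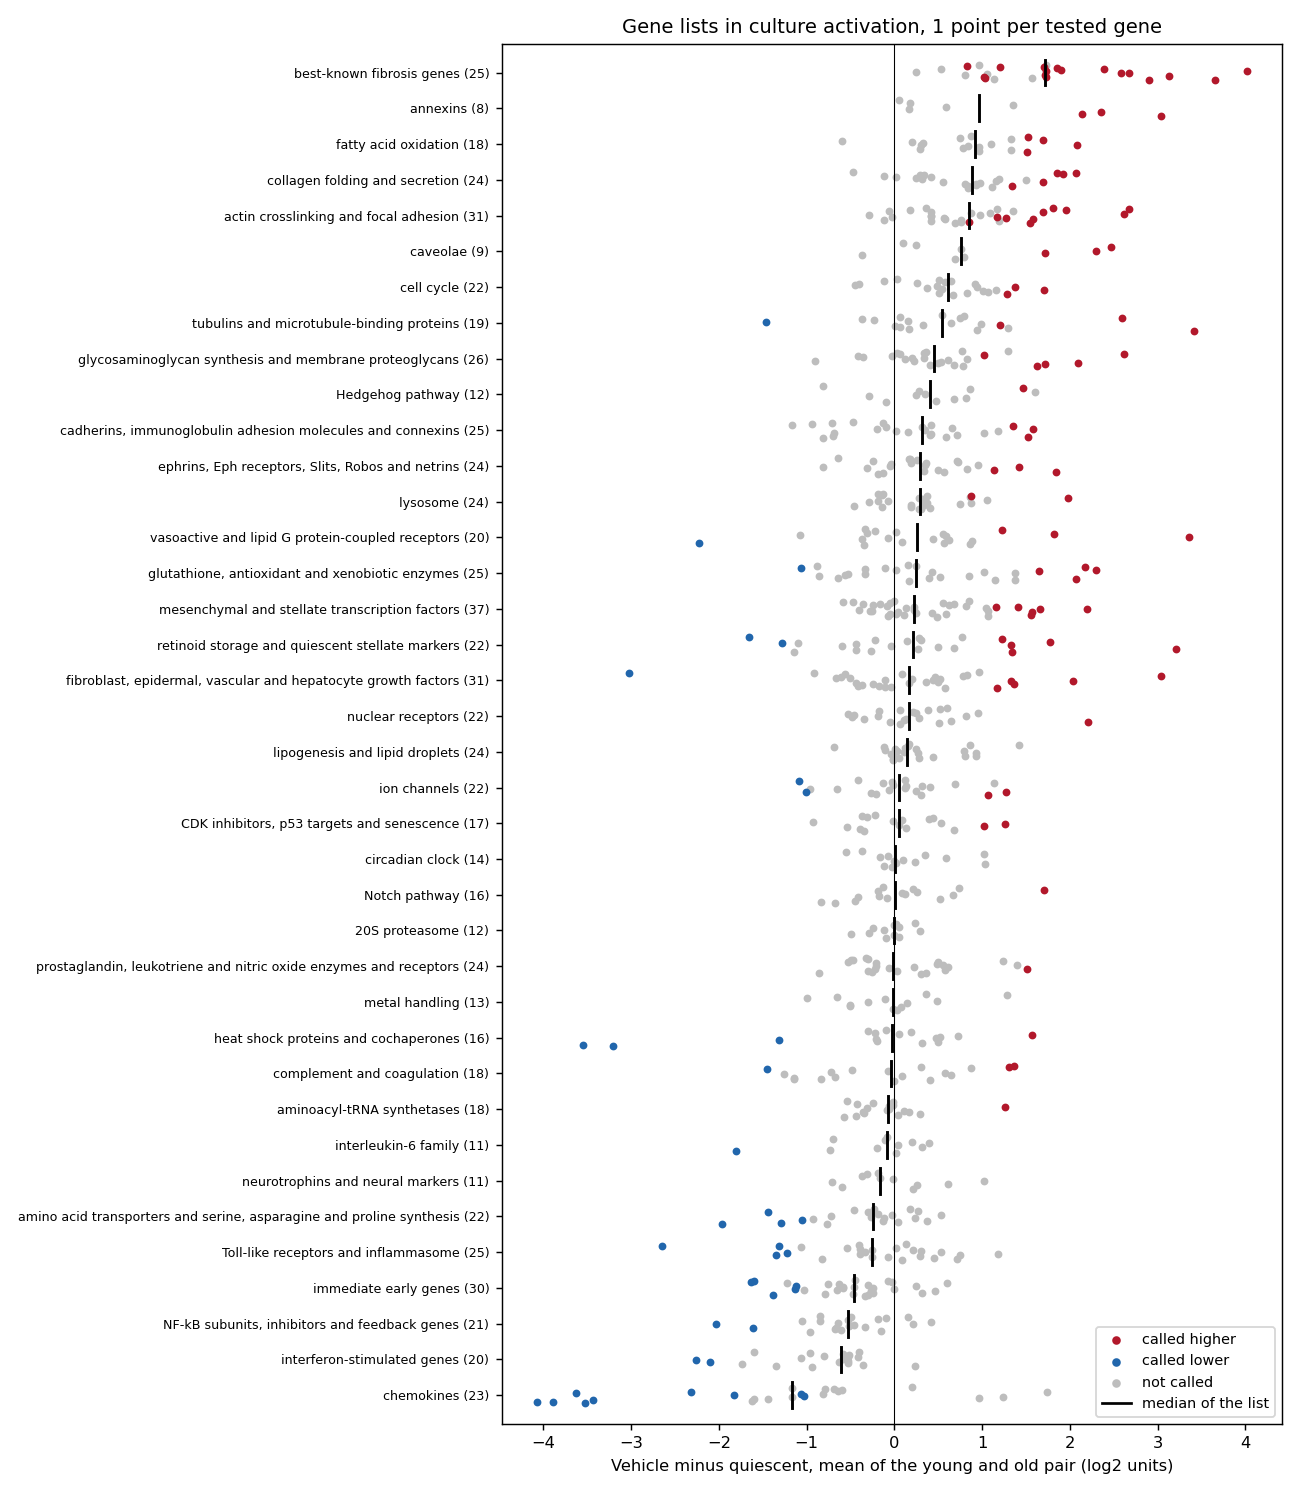
Vehicle minus quiescent (x axis, log2 units, mean of the young and old pair) for the tested genes of 38 lists (y axis, number of tested genes in brackets), with 1 point per gene, red where called higher and blue where called lower, and a black bar at the list's median. Lists are ordered by their median, from 1.72 for the best-known fibrosis genes to -1.17 for the chemokines.

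Chemokines had the lowest median of the 38 lists outside the cell type markers. Of 23 tested genes 9 fell and 0 rose, against 1.26% of all genes called lower, and the list median was -1.17, -1.19 for young and -1.07 for old cells. The count was 4 without either PRI-724 array. Cxcl2, which draws neutrophils, stood at 10.80 and 8.93 on the quiescent and at 5.97 and 5.62 on the vehicle arrays and fell by 4.07 ± 0.47 log2 units, or 16.8-fold (limma, adjusted p = 0.00408). Its neighbour and close relative Cxcl1 went from 11.02 and 10.45 to 8.13 and 6.29, a fall that was larger in old cells. Ccl5, which draws T cells, started far apart in the 2 ages, at 11.63 and 8.24, and ended at 7.07 and 5.54, and the old quiescent array still lay above the young vehicle array. Ccl7, which draws monocytes, went from 11.52 and 10.39 to 9.76 and 7.51. The monocyte chemokine Ccl2 fell by 1.83 ± 0.30, a call lost without the young PRI-724 or the old PRI-724 array (adjusted p = 0.055 and 0.055), Cxcl3 fell by 3.89 ± 0.56, a call lost without the young PRI-724 or the old PRI-724 array (adjusted p = 0.0588 and 0.0589), and Cxcl9 fell by 3.44 ± 0.68, a call lost without the young PRI-724 or the old PRI-724 array (adjusted p = 0.0933 and 0.0934). Cxcl12, which stromal cells make at rest, and Cxcl14 stood above 0, at 0.96 ± 0.35 and 1.24 ± 0.39, and were not called. Kupffer cells also make many of these chemokines. The mean of the Kupffer markers given above was higher in young and lower in old vehicle than quiescent cells, and the part of these cells in the chemokine values was not tested.

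Of the 9 chemokines that fell, the promoters of Cxcl1, Cxcl2 and Cxcl3 carry matches to the kappaB motif (GGG, any 3 bases and TTCC, on either strand), the binding letters of NF-kB. Their stretches are printed because these 3 neighbouring genes all hold the motif just before the start. The stretch of Nfkbia, a gene on another chromosome that is described below, is printed beside them. Matches are in capitals, and a run of 11 capitals holds overlapping matches on both strands.
Cxcl1 (chr5:90891131-90891209, plus strand): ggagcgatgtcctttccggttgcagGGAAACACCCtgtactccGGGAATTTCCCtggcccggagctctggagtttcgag
Cxcl2 (chr5:90903777-90903855, plus strand): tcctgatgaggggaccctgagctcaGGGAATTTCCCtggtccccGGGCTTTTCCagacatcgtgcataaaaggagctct
Cxcl3 (chr5:90786003-90786085, plus strand): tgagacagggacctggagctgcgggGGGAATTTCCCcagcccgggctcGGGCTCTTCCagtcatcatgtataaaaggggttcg
Nfkbia (chr12:55492648-55492701, minus strand): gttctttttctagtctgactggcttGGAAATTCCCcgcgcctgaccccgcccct
Cxcl3, Cxcl1 and Cxcl2 follow each other in the RefSeq order with no other tested gene between them, and all 3 fell. These paralogs are alike in sequence, so their probe sets may share signal. The motif was found in 10.5% of the promoters of lower genes (15 of 143), with the 3 Cxcl paralogs and near-identical vomeronasal receptor genes among them, in 5.48% of those of higher genes (31 of 566), in 7.11% of those of the 12055 tested genes and in 5.56% of all 32851 promoters of the table. The AP-1 motif TGANTCA stood at 19.6% of lower (28 of 143), 7.42% of higher and 6.86% of tested genes, and some of the lower genes with a match are near-identical vomeronasal receptor genes.

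Of 21 genes of NF-kB subunits, inhibitors and feedback 2 fell and 0 rose, 14 were below 0 in both pairs and the median was -0.53. Nfkbia, which encodes the inhibitor IkB-alpha and is itself an NF-kB target, went from 11.34 and 10.42 to 9.75 and 8.79, and it fell by 1.62 ± 0.22 (adjusted p = 0.00643). Tnfaip3, the enzyme A20 that shuts NF-kB off, went from 9.77 and 9.44 to 7.72 and 7.42, and it fell by 2.04 ± 0.26 (adjusted p = 0.0055). In both genes the young and old pair gave almost the same fall. Rela and Nfkb2, subunits of the factor, stood at -0.15 ± 0.21 and -0.96 ± 0.28 and were not called.

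Some cytokine and pattern recognition genes fell too. Csf2, the growth factor GM-CSF, went from 6.19 and 7.57 on the quiescent arrays to 4.0 and 3.71, under the signal floor, on the vehicle arrays, and it fell by 3.02 ± 0.41 (adjusted p = 0.00639). With the mean of all its probe sets the change was smaller, at -1.83. Il1b, interleukin-1 beta, went from 7.69 and 6.43 to 5.14 and 3.68 and fell by 2.65 ± 0.32, and Il11, a cytokine of the interleukin-6 family made by stromal cells, from 6.41 and 6.48 to 4.58 and 4.71 and fell by 1.80 ± 0.24, nearly alike in both ages. Il11 was the 1 gene called of 11 of that family, while Lif stood at -0.74 ± 0.26 and Il6 at 0.02 ± 0.46. Acod1, which makes itaconate in stimulated macrophages, went from 9.51 and 7.04 to 5.24 and 4.35 and fell by 3.48 ± 0.38, and Clec4e, the lectin MINCLE, from 7.87 and 6.72 to 4.72 and 4.22 and fell by 2.82 ± 0.28. Of 25 Toll-like receptor and inflammasome genes 4 fell and 0 rose, with a median of -0.26, and 1 did without the young quiescent or the young vehicle array. Besides Il1b these were Tlr9, a receptor for bacterial DNA, at -1.35 ± 0.29, Il1rn, the interleukin-1 receptor antagonist, at -1.31 ± 0.31, and Cd14, the coreceptor for endotoxin, at -1.23 ± 0.30. Tlr9 lost its call without the young quiescent, the young vehicle, the young PRI-724 or the old PRI-724 array (adjusted p = 0.0737 to 0.489), Il1rn without the young quiescent, the young vehicle or the old vehicle array (adjusted p = 0.105 to 0.347) and Cd14 without the young quiescent, the young vehicle, the old vehicle, the young PRI-724 or the old PRI-724 array (adjusted p = 0.058 to 0.395). Tlr4, the endotoxin receptor, stood at 0.45 ± 0.32.

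The class II antigen presentation genes H2-Ab1 and H2-Aa fell in both ages from unequal starts. H2-Ab1, the beta chain of the I-A molecule, stood at 10.49 and 8.43 on the quiescent and at 7.12 and 6.13 on the vehicle arrays, and H2-Aa, its alpha chain, at 9.12 and 7.42 and then at 5.96 and 5.12. The young quiescent array was the highest of the 4 in both genes. Their changes were -2.83 ± 0.39 and -2.73 ± 0.41 (adjusted p = 0.00643 and 0.0079). H2-Eb1, the chain of the I-E molecule, stood at -1.50 ± 0.40 and missed the threshold (adjusted p = 0.0579). Ciita, the master regulator of class II genes, was dim throughout, at 5.87 and 5.56 and then at 5.76 and 5.33, and was not called. H2-Eb1 and Ciita were named after their values were seen. Among class I genes H2-Q5 fell by 2.35 ± 0.28, from 9.37 and 7.70 to 6.80 and 5.56, and has near-identical relatives in its family.

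Of 16 heat shock proteins and cochaperones 3 fell and 1 rose, and the median was -0.03. Hspa1b, which encodes the stress-induced HSP70, stood at 10.51 and 9.10 on the quiescent and at 6.16 and 6.35 on the vehicle arrays, and it fell by 3.55 ± 0.37 or 11.7-fold (adjusted p = 0.00403). Its near-identical copy Hspa1a went from 10.52 and 8.48 to 6.24 and 6.36, a call lost without the young PRI-724 or the old PRI-724 array (adjusted p = 0.0567 and 0.057), and the probe sets of the 2 may share signal. Hsph1, an HSP70 partner, fell by 1.32 ± 0.26, a call lost without the young quiescent, the old quiescent or the young vehicle array (adjusted p = 0.106 to 0.144). The constitutive Hspa8, the HSP90 gene Hsp90aa1 and the cochaperone Dnajb1, the last 2 also inducible by stress, stood at -0.20 ± 0.15, 0.05 ± 0.27 and -0.22 ± 0.29. In the other direction Cryab, a small heat shock protein of muscle, rose by 1.57 ± 0.29, a call lost without the young vehicle, the young PRI-724 or the old PRI-724 array (adjusted p = 0.0638 to 0.202). The promoter of Hspa1a holds a match to the heat shock element GAANNTTC, as those of Hspa1b and Hsph1 do, and it is printed as the example of the group.
Hspa1a (chr17:34972228-34972285, minus strand): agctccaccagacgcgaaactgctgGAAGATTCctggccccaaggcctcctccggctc
This motif, which reads the same on both strands, was found in 11.9% of lower (17 of 143), 5.48% of higher and 7.03% of tested genes. Among the lower genes with a match are the near-identical Hspa1a and Hspa1b and the many-copy genes Srsx and Srsy, so these matches are not all separate.

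Immediate early genes, which cells switch on within minutes of a stimulus, were lower in part. Of 30 tested genes 5 fell and 0 rose, 21 were below 0 in both pairs, and the median was -0.46. The count was 1 without either PRI-724 array and 2 or 3 without any other array. Gadd45b, a stress sensor, went from 10.46 and 9.64 to 8.55 and 8.29 and fell by 1.63 ± 0.27, a call lost without the young quiescent array (adjusted p = 0.0831). Nr4a2, an orphan nuclear receptor, Fosb, an AP-1 subunit, the stress factor Atf3 and Myc fell, with changes of -1.59, -1.38, -1.13 and -1.13. Their calls were lost for Nr4a2 without the old quiescent, the old vehicle, the young PRI-724 or the old PRI-724 array (adjusted p = 0.0601 to 0.275), for Fosb without the young quiescent, the young vehicle, the young PRI-724 or the old PRI-724 array (adjusted p = 0.0601 to 0.375), for Atf3 without any 1 of the 6 arrays (adjusted p = 0.0618 to 0.435) and for Myc without the old quiescent, the young vehicle, the old vehicle, the young PRI-724 or the old PRI-724 array (adjusted p = 0.0512 to 0.24). Fos and Egr1, the best known of the class, stood at -0.33 ± 0.27 and 0.31 ± 0.30 and were not called.

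Most interferon-stimulated genes stood below 0, and few were called. Of 20 tested genes 2 fell and 0 rose, 16 were below 0 in both pairs, and the median was -0.61, -1.09 for young and -0.52 for old cells. Rsad2, the antiviral enzyme viperin, stood at 11.48 and 7.63 on the quiescent and at 8.44 and 6.14 on the vehicle arrays, so the young vehicle array was above the old quiescent array and the groups overlap. It fell by 2.26 ± 0.44, a call lost without the young quiescent, the young PRI-724 or the old PRI-724 array (adjusted p = 0.0601 to 0.0838). Oasl1 went from 10.53 and 7.96 to 7.93 and 6.36 and fell by 2.10 ± 0.50, a call lost without the young quiescent array (adjusted p = 0.156). Over the fits that left out 1 array, 0 to 9 of the 20 genes fell, with 0 without the young quiescent and 9 without the old quiescent array. Ifi205, an interferon-inducible gene of macrophages outside the list, went from 11.04 and 7.04 to 8.21 and 4.99 and fell by 2.44 ± 0.46, and its call was kept in every fit that left out 1 array. Near-identical relatives of it exist. The interferon response motif (TTTC, any 2 bases and TTTC, on either strand) was found in 7.69% of lower genes (11 of 143), 3.18% of higher and 3.49% of tested genes, and the stretch of Rsad2 shows it.
Rsad2 (chr12:26456538-26456597, minus strand): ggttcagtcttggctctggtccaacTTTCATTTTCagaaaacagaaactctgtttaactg

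Some amino acid supply genes fell. Of 22 genes of amino acid transport and of serine, asparagine and proline synthesis 4 fell and 0 rose, and the median was 0.10 for young and -0.72 for old cells. Slc7a2, a carrier of arginine, fell by 1.97 ± 0.44, Slc7a5 and Slc3a2, the 2 chains of the LAT1 transporter, changed by -1.29 ± 0.26 and -1.05 ± 0.18, and Mthfd2, an enzyme of mitochondrial folate metabolism, fell by 1.44 ± 0.29. The calls were lost for Slc7a2 without the young vehicle, the young PRI-724 or the old PRI-724 array (adjusted p = 0.0713 to 0.457), for Slc7a5 without the old quiescent, the old vehicle, the young PRI-724 or the old PRI-724 array (adjusted p = 0.0561 to 0.218), for Slc3a2 without the young PRI-724 or the old PRI-724 array (adjusted p = 0.0596 and 0.059) and for Mthfd2 without the old quiescent, the old vehicle, the young PRI-724 or the old PRI-724 array (adjusted p = 0.058 to 0.299). Without either PRI-724 array 0 of the list were called. Of 18 aminoacyl-tRNA synthetases, which charge tRNA for translation, 1 rose and 0 fell, and the median was 0.07 for young and -0.48 for old cells.

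Some plasma protein genes of hepatocytes fell, and most hepatocyte markers stood below 0. Serpina1c, an alpha-1 antitrypsin gene, went from 6.71 and 10.64 to 3.94 and 7.02, Alb, albumin, from 9.32 and 11.95 to 7.02 and 10.07, and Ahsg, fetuin A, from 6.75 and 10.39 to 4.59 and 7.40. In all 3 the old arrays were above the young arrays in the same state, and the old vehicle array exceeded the young quiescent array, so the groups overlap. Their changes were -3.20 ± 0.38, -2.09 ± 0.38 and -2.57 ± 0.47. Of 22 tested hepatocyte markers 5 fell and 0 rose (3 without the old quiescent or either PRI-724 array, 11 without the young vehicle and 18 without the young quiescent array), 21 were below 0 in both pairs, and the median was -0.74 for young and -2.11 for old cells. Mean signal of the 23 measured markers was 5.76 and 8.41 on the quiescent and 4.88 and 6.25 on the vehicle arrays, with 4 and 0 and then 8 and 2 of them under the floor, and the part of hepatocyte RNA in the falls of this paragraph was not tested. Serpina3n, an acute-phase protease inhibitor that other cells make too, had values alike in the ages, 8.27 and 8.80 and then 5.45 and 5.79, and fell by 2.92 ± 0.26 (adjusted p = 0.00264). Serpina1d, a neighbour of Serpina1c, fell by 2.60 ± 0.43, a call lost without the young PRI-724 or the old PRI-724 array (adjusted p = 0.0512 and 0.0511), and these genes are near-identical copies whose probe sets can share signal.

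Other falls fit none of these groups. Tmem108, a membrane protein known from neurons, went from 8.07 and 8.34 to 6.13 and 6.46 and fell by 1.91 ± 0.26 (adjusted p = 0.00643). Sipa1l3, a regulator of the GTPase RAP1, went from 9.84 and 9.53 to 7.41 and 7.85 and fell by 2.05 ± 0.30. Sparcl1, a matricellular relative of SPARC, went from 7.71 and 6.75 to 5.33 and 5.27 and fell by 1.93 ± 0.30, while the transport gene Abca1, which loads cholesterol onto lipoproteins, fell by 2.22 ± 0.54, a call lost without the young quiescent, the young PRI-724 or the old PRI-724 array (adjusted p = 0.0701 to 0.306). Tmem108 and Sparcl1 were named after their values were seen. Srsy, Srsx and Astx5, sex-chromosome genes in many copies, changed by -2.35, -2.07 and -2.32, and a block of near-identical vomeronasal receptor genes was called lower as well. Probes of such families match many copies, so these values cannot be assigned to 1 gene.

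Other lists had no calls or a small number each. Of all genes 5.87% were called in either direction, a share at which short lists can hold none. Some of these lists exceeded that share. Of 12 genes of the 20S proteasome, of 14 circadian clock genes, of 13 genes of metal handling and of 11 neurotrophin and neural marker genes, none was called, with medians of 0.00, 0.01, -0.02 and -0.16. Of 22 cell cycle genes 3 rose and 0 fell (0 without the young vehicle array or either PRI-724 array, 7 without the old vehicle array), with a median of 0.61 and 19 above 0 in both pairs. Rrm2, a subunit of ribonucleotide reductase, had the largest rise at 1.71 ± 0.32, a call lost without the young vehicle, the young PRI-724 or the old PRI-724 array (adjusted p = 0.0601 to 0.197). Of 17 genes of cyclin-dependent kinase inhibition, p53 and senescence 2 rose, and 0 did without the young vehicle array or either PRI-724 array. Cdkn1a and Cdkn2a, which encode the inhibitors p21 and p16, stood at -0.34 ± 0.17 and 0.13 ± 0.26. Of 24 lysosomal genes 2 rose, of 18 complement and coagulation genes 2 rose and 1 fell, of 22 ion channels 2 rose and 2 fell, and of 24 prostaglandin, leukotriene and nitric oxide genes 1 rose. None of the calls in these lists was kept in every fit that left out 1 array. The mechanosensitive channel Piezo1 stood at 0.30 ± 0.24 and Piezo2 rose by 1.07 ± 0.27, a call lost without the old quiescent, the young vehicle, the old vehicle, the young PRI-724 or the old PRI-724 array (adjusted p = 0.0714 to 0.474).

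Among markers of other liver cells most did not pass the test. Of 22 tested Kupffer markers 1 rose, Vsig4 by 1.58 ± 0.33, a call lost without the young quiescent, the young vehicle, the young PRI-724 or the old PRI-724 array (adjusted p = 0.0639 to 0.386), and of 11 markers of lipid-laden and multinucleate macrophages 1 rose, with a median of 1.61 for young and 0.16 for old cells. Of these 11, 6 rose without the old quiescent or the old vehicle array and 0 without any other array. Of 12 sinusoidal endothelial markers 2 rose. Oit3, made by sinusoidal endothelium, went from 8.01 and 6.67 to 10.54 and 10.14 and rose by 3.0 ± 0.35, with its call kept in every fit that left out 1 array, while Stab1 and Lyve1 stood at 0.22 ± 0.42 and -0.81 ± 0.70. Of 15 pan-endothelial markers 4 rose: Emcn, a surface mucin, by 2.73 ± 0.49, the guidance receptor Robo4 by 1.76 ± 0.36, the transcription factor Sox18 by 1.49 ± 0.24 and the coreceptor Eng by 0.81 ± 0.20. Emcn lost its call without the young PRI-724 or the old PRI-724 array (adjusted p = 0.055 and 0.055), Robo4 without the old quiescent array (adjusted p = 0.226), Sox18 without the young vehicle array (adjusted p = 0.0601) and Eng without the old quiescent, the young vehicle, the young PRI-724 or the old PRI-724 array (adjusted p = 0.0565 to 0.276). Pecam1 and Cdh5, which define the endothelium, stood at -0.34 ± 0.46 and -0.70 ± 0.44. The mean of the sinusoidal markers was about the same in the young states and higher in old vehicle than old quiescent cells. Endothelial cells are also known to make Apln and Edn1, and the part of these cells in those rises was not tested. Of 10 mesothelial markers 3 rose. Upk1b, a uroplakin, went from 5.66 and 5.59 to 8.08 and 8.15 and Lrrn4 from 4.86 and 5.14 to 7.03 and 7.09, while Msln, mesothelin itself, stood at 0.18 ± 0.26. None of the 8 cholangiocyte, 7 lymphocyte and 8 neutrophil markers tested was called, 1 of 9 portal fibroblast markers rose, and of 12 vascular smooth muscle and pericyte markers 1 rose and 1 fell.

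**Figure D4:**
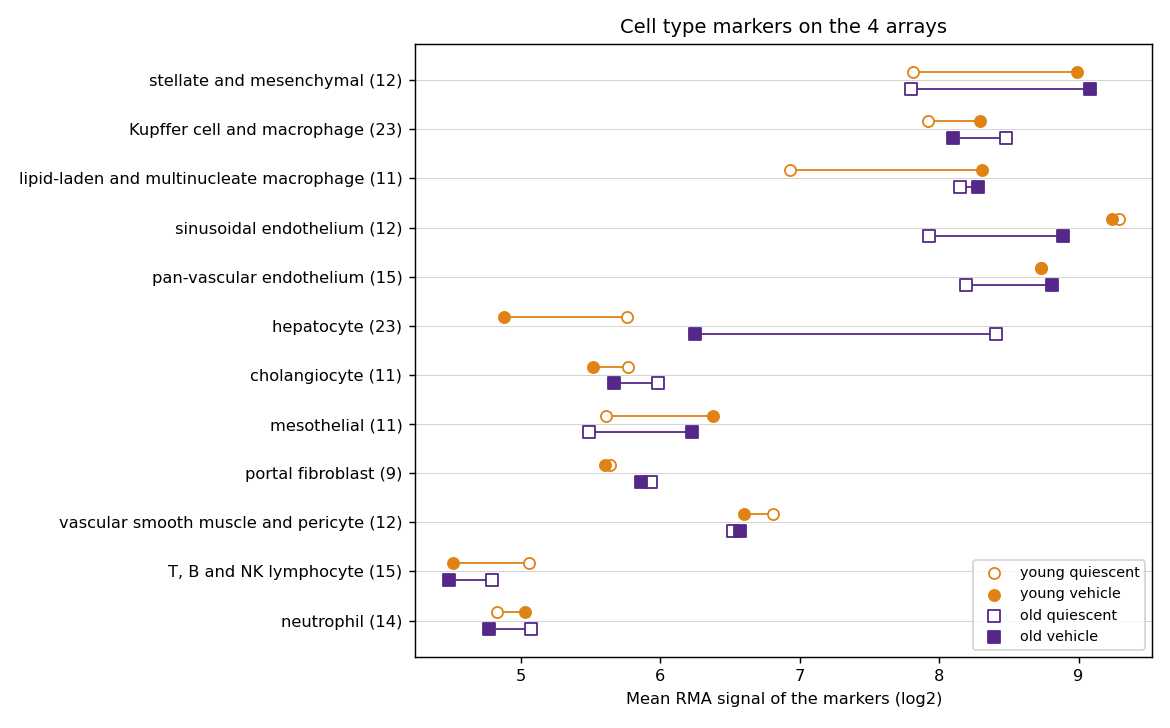
Mean RMA signal (x axis, log2) of the marker genes of 12 cell types (y axis, number of measured markers in brackets) on the 4 arrays, with circles for young and squares for old cells, open for quiescent and filled for vehicle. Stellate markers move right in both ages and hepatocyte markers left, the latter from 8.41 to 6.25 in old and from 5.76 to 4.88 in young cells.

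The size of the changes differed between the young and the old pair. Over the 716 higher genes the median difference was 1.70 for young and 1.29 for old cells, and 538 had the larger rise in young cells. Over the 195 lower genes the medians were -1.58 and -1.49, and 111 had the larger fall in young cells. Over all tested genes the medians were 0.04 for young and 0.05 for old cells. The interquartile range was 2.43 log2 units on the young vehicle and 2.34 on the old vehicle array, and the part of this spread in the sizes was not tested. Across the 15526 genes, which share arrays and are not replicates, the 2 pairs correlated at 0.668 (Pearson). With 1 array per age and state, a difference between the ages was not tested. Serpina12, an adipokine, is an example of a rise that sat mostly in young cells, from 4.22 and 4.23 to 8.75 and 5.68, and Saa2, an acute-phase protein of hepatocytes, of a fall that sat mostly in old cells, from 4.71 and 10.32 to 3.28 and 5.47. Serpina12 lost its call without the young PRI-724 or the old PRI-724 array (adjusted p = 0.0913 and 0.0915) and Saa2 without the young PRI-724 or the old PRI-724 array (adjusted p = 0.0984 and 0.0987). At the other end Clca3a1, a secreted regulator of chloride current, went from 5.37 and 5.14 to 8.41 and 8.22, and Tspan6, a tetraspanin, from 5.15 and 4.82 to 8.41 and 8.18, with differences of 3.04 for young and 3.08 for old cells and of 3.27 for young and 3.36 for old cells.

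Some called genes are neighbours in the RefSeq order. Anxa1, Aldh1a1 and the unnamed transcript E030003E18Rik follow each other and all rose. Tmem176a and Tmem176b, paired membrane protein genes of immune and stromal cells, also lie side by side, and Tmem176a went from 7.02 and 6.94 to 10.16 and 9.17 and Tmem176b from 7.77 and 7.54 to 10.43 and 9.70. Whether such runs are more frequent than among other genes was not tested.

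A further check came from genes with a second probe set that the comparison had not used. Of 50 called higher genes with another probe set over the floor, 45 were above 0 there and 41 in both pairs, with a median of 0.97. Of 21 called lower genes, 20 were below 0 in both pairs, with a median of -1.36. Among 634 genes that were not called, 256 were above and 378 below 0, and the median was -0.09. These probe sets were read on the same arrays, so they show agreement between probes and not between samples.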

How the data were processed

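Total RNA was isolated with RNeasy, target was made with GeneChip WT PLUS reagents, per the labels' protocols, and hybridised to 6 Affymetrix arrays, 1 for each age and state. The deposited values are log2 signals made with Affymetrix Expression Console and RMA (background correction, normalization and a summary per probe set), per the submitters' processing notes; the sources name no versions. RMA compresses low signals, so fold changes of dim genes are understated. The number of arrays limits the precision.

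Of 41345 probe sets 23521 had 1 gene symbol in the platform's annotation, 1814 several and 16010 none in it, and 23328 of the first matched RefSeq by gene ID. For the 1082 genes with more than 1 probe set, that with the highest mean was used. Of 22180 genes, the 30% with the lowest mean over 6 arrays (under 4.70) were left out. Vehicle minus quiescent was fitted for 15526 genes with limma 3.58.1 in R 4.3.3 (state and age on 6 arrays, eBayes with an intensity trend, 2 residual and 7.76 prior degrees of freedom), with Benjamini-Hochberg adjusted p of at most 0.05. The fit was tested on simulated data. Nothing says that same-age samples share animals, and p-values measure only the spread between these 6 samples.

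Named genes were the 40 largest rises and falls called and at least 2-fold in both pairs (predicted, small RNA, histone, receptor segment and olfactory genes skipped), called members of 50 gene lists (905 of 1045 genes tested), up to 4 members of each with the largest change, genes at least 2-fold apart in opposite directions, and runs of 3 or more called neighbours; the best-known fibrosis genes get counts and at most 3 names. The text takes a part of these, and 1 further list is not reported here. Other genes are members given for contrast or were chosen after their values were seen. Members, lists and alternatives were chosen with earlier results of these data known. Promoters (250 bases before to 50 after the start) were those of RefSeq, GRCm38.p6. The alternatives were other filters, the mean of probe sets, no trend, robust eBayes, no age, the 4 arrays alone, cyclic loess, quantile normalization, other fold limits and each array left out. Figures used Python 3.11.15, pandas 2.3.3 and matplotlib 3.10.9.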

Additional observations from a re-analysis of the deposited data

Results flagged for a closer look

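In 15 named genes the single difference of the young pair and that of the old pair were each at least 2-fold and opposite in direction. With 1 array per group the difference between the ages was not tested. None of these genes was called in the comparison, as the test can call no gene with opposite signs in the pairs. They make up most of the 17 such genes in 15526.

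Genes lower in young and higher in old vehicle cells included Selp, the adhesion molecule P-selectin of endothelium and platelets, at -2.96 and 1.27 log2 units, Lyve1, a hyaluronan receptor of sinusoidal endothelium, at -2.76 and 1.14, the potassium channel gene Kcnj2 at -2.36 and 1.05, the protease gene Adamts9 at -1.17 and 1.30, Fgf23, a phosphate-regulating hormone, at -1.36 and 1.52, and Sntb1, a syntrophin, at -1.31 and 1.04. Lyve1 stood at 12.30 and 8.83 on the quiescent and 9.54 and 9.97 on the vehicle arrays, so among these 4 arrays the young quiescent was the highest and the old quiescent the lowest. Of the 4, the old quiescent array also had the lowest mean of the sinusoidal endothelial markers, at 7.93 against 8.89 to 9.29, and their part in these values was not tested. Lyve1 is itself among these markers, so its own values enter that mean.

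Genes higher in young and lower in old vehicle cells included the macrophage genes Ccl6, a chemokine, at 4.55 and -1.07, Clec4n, the lectin dectin-2, at 2.65 and -1.33, and Cd5l, a secreted protein, at 1.29 and -1.098. Ccl6 stood at 6.23 and 10.46 on the quiescent and 10.78 and 9.39 on the vehicle arrays, so the young quiescent array was the low one. Of the 4 arrays it also had the lowest mean of the Kupffer markers, at 7.92 against 8.10 to 8.48, and their part in these values was not tested. Cd5l is itself among these markers, so its own values enter that mean. The metabolic genes Scd1, which desaturates fatty acids, at 2.44 and -1.57, Slc7a11, the cystine carrier, at 1.95 and -1.20, Gsta3, a glutathione transferase, at 1.56 and -1.23, Reep6 at 1.33 and -1.04 and Arg1, arginase 1, at 1.08 and -1.19 went the same way. Il6, the cytokine interleukin-6, stood at 1.09 and -1.04.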

How the results depend on the processing

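The direction of each named called gene held under the alternatives run: over 220 such genes and 3287 values under other settings, 0 changed sign, 2435 stayed past the threshold and 852 did not. Other filters, other estimates of the spread, the model without age and the fits without a PRI-724 array leave a gene's difference as it is. No sign could turn in those settings, and the genes had been picked as called. The counts of called genes did move. Against 716 higher and 195 lower genes, the model without age called 97 and 17, the 4 quiescent and vehicle arrays alone 362 and 119, cyclic loess 338 higher genes and quantile normalization 246 and 85. Leaving out 1 array gave 193 to 973 higher and 115 to 257 lower genes. Against 630 and 179 genes at least 2-fold apart in both pairs, a 1.5-fold limit gave 1772 and 643 and a 3-fold limit 171 and 56. The model without age leaves the age difference in the spread, and the 4-array fit has fewer samples; for the other changes the cause was not tested. Of 15 lists with a median of at least 0.5 either way, none of 225 alternative medians turned its sign. In the settings that alter only the spread this was fixed in advance. Age, which pairs the samples, was a term of every fit but the one named as without it. With 1 array per group the spread within a group is unknown, and changes near the signal floor are limited by dim signal.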

Other observations

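Some genes outside the groups above, chosen after their values were seen, rose in every fit that left out 1 array. Hsd11b1, which regenerates active glucocorticoid inside cells, went from 5.16 and 6.27 on the quiescent to 8.24 and 8.11 on the vehicle arrays (young, then old) and rose by 2.46 ± 0.34 log2 units (SE, n = 2 pairs; limma, adjusted p = 0.00639). Mfge8, a secreted bridge between dying cells and phagocytes, was bright throughout and went from 8.75 and 9.42 to 11.05 and 11.02. Antxr1, a collagen-binding receptor also used by anthrax toxin, went from 7.53 and 7.41 to 9.27 and 9.52, and Ppt1, a lysosomal thioesterase, from 6.99 and 7.60 to 9.99 and 9.44. Gpihbp1, which carries lipoprotein lipase across capillary endothelium, went from 6.23 and 5.52 to 8.04 and 7.48 and rose by 1.89 ± 0.26. The long noncoding RNA host gene Snhg18 was near the signal floor at 4.97 and 5.20 and reached 6.85 and 7.52, a rise of 2.10 ± 0.27 (adjusted p = 0.00537). In these 6 genes each vehicle array was above both quiescent arrays. They were picked as rises, and the share of all genes with such a separation was not counted.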
